A study of Homo sapiens with 11 samples.

Results

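CDK2-resistant FOXO1 was compared with empty vector in A673sh, an Ewing sarcoma cell line that carries a doxycycline-inducible shRNA against the fusion oncogene EWS-FLI1. The comparison uses 2 of the 11 expression arrays of the series, chosen by their labels: 1 array of cells transfected with FLAG-tagged FOXO1-S249A/S298A, in which 2 serines that CDK2 phosphorylates are alanines, and 1 array of cells transfected with the empty pCDNA3 vector. Both cultures were transfected transiently and received no doxycycline, so that EWS-FLI1 was expressed in both. The comparison shows which genes differ between cells given CDK2-resistant FOXO1 and cells given empty vector. The series holds no array of wild-type FOXO1, so effects of added FOXO1 and of the substitutions cannot be told apart. The other arrays were 1 of cells with FOXO1-T24A/S256A/S319A, resistant to phosphorylation by AKT, and 8 of cells transfected with a plasmid for either a scrambled control shRNA (sh-scrambled) or one that targets FOXO1 (sh-FOXO1). The shRNA groups were left untreated or kept in 1 µg/ml doxycycline over 48 h, with 2 arrays a group.

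FOXO1 is a forkhead transcription factor. Phosphorylation by AKT or CDK2 keeps it in the cytoplasm, and in the nucleus it binds promoters of genes for cell cycle arrest, antioxidant defence and metabolism. EWS-FLI1 drives Ewing sarcoma and represses many genes, FOXO1 among them. NF-kB is a family of factors that are held by inhibitors in the cytoplasm and, once released, switch on genes for chemokines, cytokines and adhesion molecules.

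Levels are log2 values of 1 probe set a gene, for 12326 genes, and a difference is the CDK2-resistant array minus the empty vector array. With 1 array each there is no test of this comparison. A difference past 0.7 in either direction (1.62-fold) was counted, and for each gene the largest difference between replicates of the 4 shRNA groups served as a yardstick. The labels do not say whether those replicates were separate cultures, and they deviated together, with correlations of 0.44 to 0.62 between groups of their differences over genes. The plasmid arrays also stood apart from the shRNA arrays: 1242 genes were higher (10.1%) and 469 lower (3.80%) past 0.7 with empty vector than in the mean of the sh-scrambled arrays without doxycycline. On the 3 plasmid arrays the actin control probe set for the 3′ end was 0.30 to 0.53 above that for the 5′ end, and 0.76 to 1.05 above it on the shRNA arrays. What this difference contributes to the results was not tested. All 12 Ewing sarcoma markers fixed for the check were measured, at 6.14 to 11.9 with empty vector and 5.98 to 12.1 with CDK2-resistant FOXO1, and none was past 0.7. In bulk RNA, a change in the number of cells that express a gene and a change in RNA per cell cannot be told apart, and the share of cells that took up plasmid is not known.

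The FOXO1 message was higher with the construct, though not in every probe set. The probe set used for FOXO1 read 5.84 with empty vector, 7.06 with CDK2-resistant and 8.30 with AKT-resistant FOXO1. A further probe set read 3.97, 8.11 and 8.84 on these arrays, and the remaining one 5.88, 5.61 and 5.71. The further probe set read 3.64 to 3.78 on the 8 shRNA arrays. The remaining one read 5.87 and 6.02 in sh-scrambled cells without doxycycline and 7.79 and 7.80 with it. In sh-FOXO1 cells without doxycycline it read 4.41 and 4.46. Whether each probe set lies in the part of FOXO1 that the plasmid carries was not checked. How much of the RNA came from the plasmid and how much from the cell's own gene was not tested. FLI1, whose 3′ part is in the fusion, was at 8.98 with empty vector and 8.88 with CDK2-resistant FOXO1. CDK2 itself was at 6.85 and 7.53 in the probe set used and at 8.93 and 9.003 in a brighter one.

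With CDK2-resistant FOXO1, 213 genes were higher past 0.7 (1.73% of all genes) and 190 lower (1.54%), around a median difference over all genes of −0.02. The replicate pairs gave 157 genes past 0.7 in either direction in sh-scrambled (1.27%), 39 in sh-scrambled with doxycycline (0.316%), 90 in sh-FOXO1 (0.730%) and 46 in sh-FOXO1 with doxycycline (0.373%), against 403 here (3.27%). Of the higher genes 211 (1.71%) and of the lower genes 187 (1.52%) were also past their own largest replicate difference. The exceptions, named after their values were seen, were TMED2 and EZH1 among the higher genes and RAPGEF2, TRIM4 and ZNF430 among the lower. The replicate difference alone would have passed 5358 genes (43.5%). Values lay closely on both sides of the limit, with KCNS3 at 0.702 counted and GTPBP2 at 0.699 not.

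Among the 33 gene lists, genes of inflammation and cell adhesion and chemokines held the most higher members. The lists were chosen with earlier results of these data known. Of 29 listed genes that NF-kB is known to induce 27 were measured, 10 of them were higher past 0.7 and 0 lower, and their median difference was 0.41. ICAM1, the adhesion molecule that leukocytes bind through integrins, was at 4.66 with empty vector and at 6.77 with CDK2-resistant FOXO1. The difference was 2.11 (4.33-fold), and the other 2 probe sets of ICAM1 gave 1.53 and 1.03. VCAM1, a second leukocyte adhesion molecule, was at 4.62 and 6.02. Both genes were below the median of the empty vector array, which was 5.11, and above that of the CDK2-resistant array. Against the mean of the sh-scrambled arrays without doxycycline, ICAM1 was at 1.34, but VCAM1 at 0.21, within the limit. The cytokine genes IL1A and IL1B were higher as well. IL1A was at 7.98 with empty vector and 9.29 with CDK2-resistant FOXO1, and IL1B at 7.03 and 8.12, with 1.04 in its second probe set. EBI3, a cytokine subunit, was higher by 1.13. The remaining 5 were IL32 at 0.91, the gelatinase MMP9 at 0.90, CD83 at 0.90, the early response gene IER3 at 0.87 and the receptor CD40 at 0.70. All 10 were past their largest replicate difference, and all are named here after their values were seen. Of the 17 members within the limit, TNFAIP2 was at 0.60, TNF at 0.48, IL6 at 0.39, PTGS2 at −0.16 and CFB, the lowest, at −0.54.

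Chemokines, the secreted proteins that attract leukocytes, formed the second group. Of 30 listed chemokines and receptors 19 were measured, 7 were higher past 0.7 and 1 lower, and the median difference was 0.33. CCL2, which attracts monocytes, read 6.83 with empty vector and 8.93 with CDK2-resistant FOXO1 (4.28-fold). The neutrophil chemokine CXCL8 read 7.94 and 9.57, with a difference of 1.64 and of 1.59 in its second probe set. CCL20, the ligand of CCR6, read 6.82 and 8.24. These 3 were well expressed with empty vector already. CXCL10, CXCL3 and CXCL1 lay below the array median there, at 4.28, 4.88 and 4.61, and were higher by 1.57, 1.32 and 1.21 with CDK2-resistant FOXO1. The receptor CXCR4 was higher by 1.97, and the atypical receptor ACKR3, which takes up CXCL12, was lower, at −1.05. CXCL12 itself was at 0.52 and CXCL2 at 0.31, within the limit. TNFSF15, a cytokine of the tumour necrosis factor family outside both lists, was higher by 1.33. Other genes among the 15 highest were MGAT4C, a glycosyltransferase, at 1.66, the scavenger receptor COLEC12 at 1.52, the lipid transporter ABCA8 at 1.44, RNF175 at 1.35 and RGS1, an inhibitor of G protein signalling, at 1.34. Against the mean of the sh-scrambled arrays without doxycycline, MGAT4C was at 0.19, COLEC12 at −0.29, ABCA8 at −0.76, RNF175 at 0.76 and RGS1 at −0.32.

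**Figure D1:**
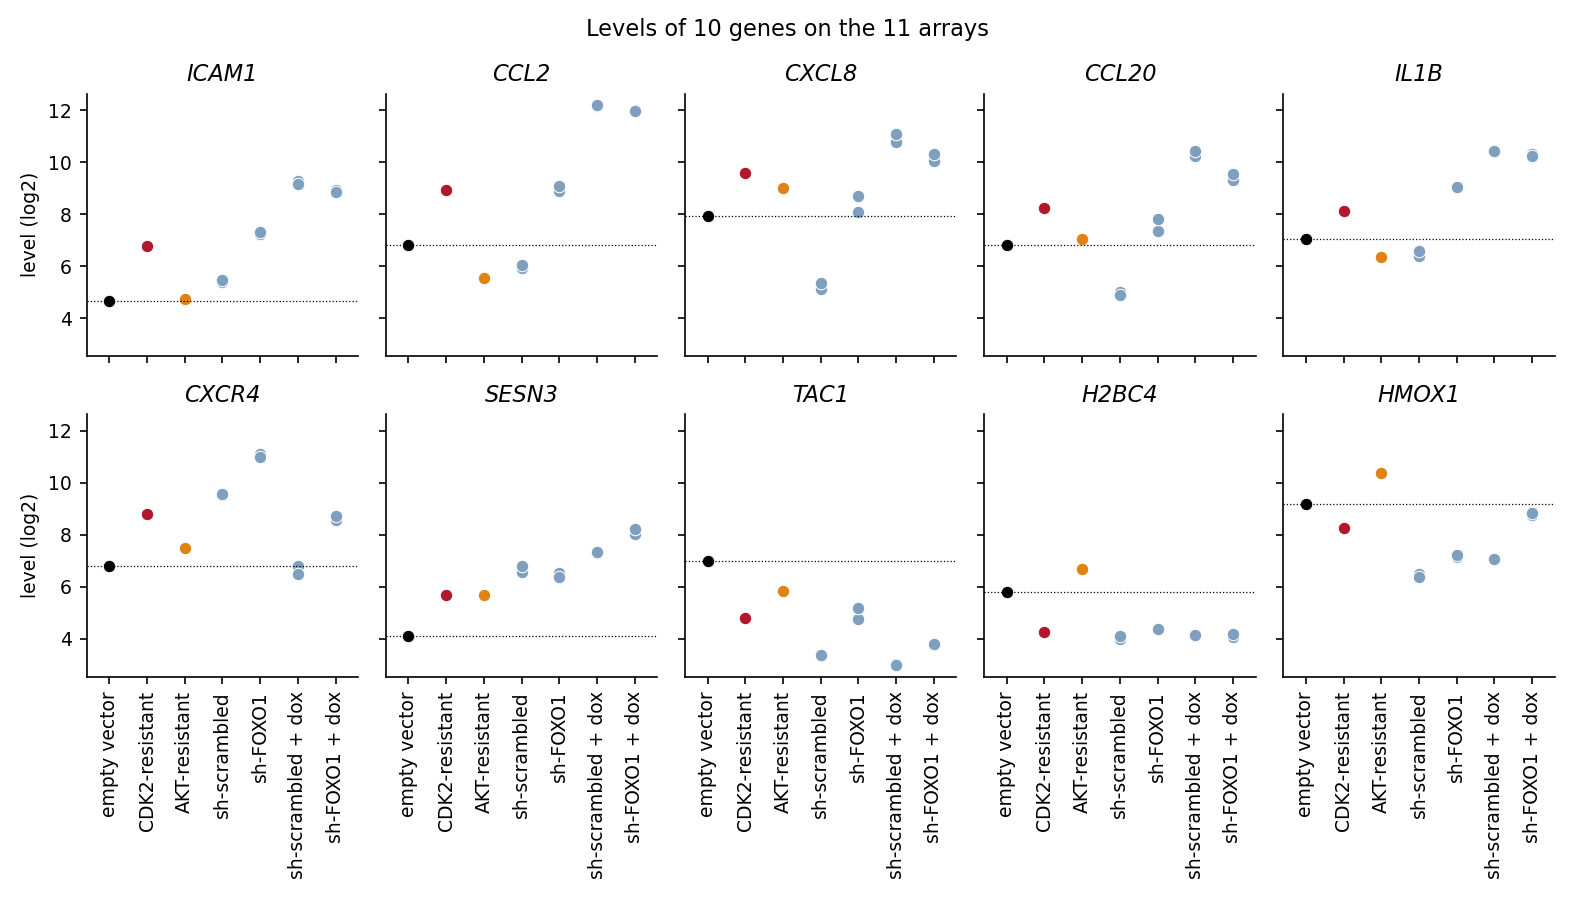
Log2 level of 10 genes on each of the 11 arrays: empty vector (black, with a dotted line at its level), CDK2-resistant FOXO1 (red), AKT-resistant FOXO1 (orange) and the shRNA groups (blue, 2 arrays each; dox, doxycycline). ICAM1, CCL2, CXCL8, CCL20 and IL1B sit above the empty vector with CDK2-resistant FOXO1, and CXCR4 and SESN3 lie below the sh-scrambled arrays without doxycycline there.

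Several promoters of these genes hold short words like those that NF-kB binds. In the 250 bases before the RefSeq start, searched on both strands, GGAANTTCC, or GGG and TTTCC with 2 bases of any kind between them, was found before 2.41% of all 27305 genes with a promoter in the table. The 2 words can overlap. The share was 2.72% of the 9989 such genes analysed here, 10.1% of the 158 found among the higher genes (16 genes) and 2.03% of the 148 found among the lower genes (3 genes). Of the 17 higher genes in the chemokine and inflammation lists, 13 had a promoter in the table and 7 of these held one of the words, namely CXCL1, CXCL3, CXCL8, CXCL10, CCL20, ICAM1 and IL32. The forkhead word GTAAACA was found before 1.90% of the higher, 2.03% of the lower and 1.87% of the analysed genes, and before 0 of those 13. GAAA followed by GAAA with 2 bases between, a word of interferon response elements, was found before 6.96% of the higher, 2.03% of the lower and 2.26% of the analysed genes. A match describes letters only, and these shares were not tested. The inflammation list was made of genes that NF-kB is known to induce, so a share among its members cannot be told apart from the choice of the list. The share among listed genes that were not higher was not counted. Those 7 genes are also among the 16. The sequences of the 4 highest chemokine and adhesion genes that hold an NF-kB word are printed here 5′ to 3′ from RefSeq (build GRCh38.p14, the 250 bases before the start, strand as named), with the matched words in capitals.
ICAM1, chr19:10270870-10271119, plus strand: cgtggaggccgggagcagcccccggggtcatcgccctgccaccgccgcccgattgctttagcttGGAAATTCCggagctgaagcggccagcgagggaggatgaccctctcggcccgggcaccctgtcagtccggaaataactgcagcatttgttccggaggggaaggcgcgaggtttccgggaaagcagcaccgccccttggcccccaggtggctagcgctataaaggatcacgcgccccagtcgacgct
CXCL8, chr4:73740319-73740568, plus strand: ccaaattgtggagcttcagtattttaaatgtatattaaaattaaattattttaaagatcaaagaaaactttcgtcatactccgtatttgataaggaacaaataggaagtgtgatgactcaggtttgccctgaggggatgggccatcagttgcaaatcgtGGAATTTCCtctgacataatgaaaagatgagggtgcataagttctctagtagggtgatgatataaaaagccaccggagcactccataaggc
CXCL10, chr4:76023498-76023747, minus strand: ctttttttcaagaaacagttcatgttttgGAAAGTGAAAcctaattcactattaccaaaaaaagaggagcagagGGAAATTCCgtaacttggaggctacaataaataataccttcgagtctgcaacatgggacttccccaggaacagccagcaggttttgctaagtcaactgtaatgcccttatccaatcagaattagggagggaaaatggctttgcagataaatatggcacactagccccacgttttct
CCL20, chr2:227813592-227813841, plus strand: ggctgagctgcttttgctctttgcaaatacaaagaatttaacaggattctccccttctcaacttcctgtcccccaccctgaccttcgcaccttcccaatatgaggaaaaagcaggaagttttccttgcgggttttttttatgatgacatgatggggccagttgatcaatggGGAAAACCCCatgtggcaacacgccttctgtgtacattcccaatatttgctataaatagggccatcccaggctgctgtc
The ICAM1 word starts 186 bases before the start site, that of CXCL8 91, that of CCL20 79 and that of CXCL10 176. CXCL10 also holds the interferon word, 221 bases before its start.

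The count of NF-kB pathway factors past the limit depended on the control. Of 18 measured subunits, inhibitors and feedback genes only TRAF1, an adaptor of tumour necrosis factor receptors, passed the limit against empty vector, at 0.91, and the median difference was 0.18. When the control was the mean of 3 arrays (the untreated sh-scrambled pair and empty vector), 5 were higher with a median of 0.40, and against the sh-scrambled arrays alone 7 with a median of 0.58. Feedback genes lay just within it: NFKBIZ at 0.66, NFKB2 at 0.64, the inhibitor NFKBIA at 0.61, the deubiquitinase TNFAIP3 at 0.59 and REL at 0.56. The subunit RELA was at −0.25 and the inhibitor NFKBIB at −0.67.

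Most interferon-stimulated genes lay above 0, and some were past the limit. Of 35 measured members 4 passed 0.7 upward (11.4%, against 1.73% of all genes) and 1 downward (2.86%, against 1.54%). Above 0 were 29 members, as were 5752 of all 12326 genes. These shares were not tested. The median difference was 0.33, against −0.02 over all genes. OAS1, which makes the second messenger that activates RNase L, was at 4.67 with empty vector and 5.87 with CDK2-resistant FOXO1. BST2, which tethers viruses to the membrane, read 4.43 and 5.35. IFIT1 was higher by 0.85 and OAS3 by 0.78, and the mitochondrial kinase CMPK2 was lower, at −0.72. Of these 5 only OAS3 and CMPK2 reached the array median on both arrays. Against the mean of the sh-scrambled arrays without doxycycline, 4 members were higher with a median of 0.22. There OAS1 was at 0.61, OAS3 at 0.28, CMPK2 at 0.21, BST2 at −0.25 and IFIT1 at −0.45. Among 21 sensors and signalling genes the RNA sensor IFIH1 was higher, at 6.86 and 7.75, with RIGI within the limit at 0.58. IRF7, an interferon regulatory factor, was lower, at −0.77. The 17 genes of MHC class I and antigen processing had a median of 0.12, with 0 past the limit.

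Textbook FOXO targets had medians close to that of all genes. Of 17 measured genes of growth arrest and death only TXNIP, the thioredoxin inhibitor, passed the limit, at 8.05 with empty vector and 8.95 with CDK2-resistant FOXO1, and the list's median was 0.00. BCL2L11 was at −0.45, FBXO32 at −0.46, CDKN1A at 0.51 and CDKN1B at 0.10. Of 22 antioxidant, metabolic and feedback targets CXCR4 and SESN3 passed, and the median was −0.11. CXCR4 read 6.81 with empty vector and 8.78 with CDK2-resistant FOXO1, and its other probe sets gave 1.63 and 1.46. SESN3, an inhibitor of mTORC1 signalling, read 4.09 and 5.69, but 0.38 in its second probe set. The sh-scrambled arrays without doxycycline read higher than the CDK2-resistant array in all 3: CXCR4 at 9.51 and 9.57, SESN3 at 6.58 and 6.80, and TXNIP at 9.86 and 9.76. Other forkhead genes stayed within the limit except the mesenchymal factor FOXC2, which was lower, at −0.74, and FOXO1.

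The lower genes were more mixed. TAC1, the precursor of the neuropeptide substance P, was at 6.97 with empty vector and at 4.78 with CDK2-resistant FOXO1, a difference of −2.19 (4.56-fold). The sh-scrambled arrays read 3.33 and 3.37 and the AKT-resistant array 5.83, so that the empty vector array was the highest of all 11. DHRS2, a dehydrogenase, was also at −2.19, with −0.65 in its second probe set, and UBE2QL1 was at −1.75. COL11A1, a fibrillar collagen, was at −1.41, the transcription factor GATA6 at −1.29, the translation regulator CPEB4 at −1.22 and the growth factor PGF at −1.21. EVA1A was at −1.34 and the noncoding LINC00326 at −1.29. In the TGF-beta pathway the repressor SKIL was at −1.04, the secreted TGFBI at −1.01 and the target ID1 at −0.77, and the median of its 28 measured genes was −0.09. With the mean of the 3 control arrays 0 of the 28 were past the limit. In the list of insulin-like growth factor, PI3K and AKT genes, IGFBP7 was at −1.15 and the kinase SGK1 at −0.89. HMOX1, the haem oxygenase induced by oxidative stress, was at −0.93. For every gene named in this paragraph, both sh-scrambled arrays without doxycycline read lower than the CDK2-resistant array. Against the mean of those sh-scrambled arrays, COL11A1 was at 0.46, GATA6 at 0.43, CPEB4 at 0.74, PGF at 0.39 and HMOX1 at 1.81. The lower values of these genes with CDK2-resistant FOXO1 thus did not hold against the sh-scrambled arrays. They did hold against the AKT-resistant array, from −0.50 for ID1 to −2.88 for IGFBP7.

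Histone genes lay below 0 throughout. All 11 measured members were below 0, with a median of −0.47, and 3 passed the limit. H2BC4 read 5.78 with empty vector and 4.24 with CDK2-resistant FOXO1, H4C8 6.03 and 4.95, and H2BC21 5.69 and 4.86. The 9 metallothionein-related genes, which bind or handle zinc, were also all below 0, with a median of −0.21. Only the zinc exporter SLC30A1 passed the limit among them, at −0.76. The sign of both medians depended on the control. Against the mean of the empty vector array and the 2 sh-scrambled arrays without doxycycline, the medians were 0.14 for histones and 0.33 for metallothioneins.

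No measured gene of the cell cycle lists was past the limit against empty vector. Of 42 measured genes of G1/S and DNA replication and 40 of mitosis, 0 were higher and 0 lower past 0.7, with medians of 0.03 and 0.07. The p53 targets, the unfolded protein response and the hypoxia response also had 0 members past it, with medians of −0.07, −0.08 and −0.02. These counts hold for the empty vector control. With the mean of the 3 control arrays the G1/S and mitosis lists still had 0 members past it, with medians of 0.09 and −0.13. With the sh-scrambled arrays as control their medians were 0.07 and −0.25. There 1 G1/S gene was higher and 0 lower, and 1 gene of mitosis was higher and 3 were lower. Against the mean of the 3 control arrays 3 p53 targets, 5 genes of the unfolded protein response and 1 of the hypoxia response were higher, with medians of 0.12, 0.24 and 0.13, and against the sh-scrambled arrays 4, 9 and 3. Of 28 genes that EWS-FLI1 is known to repress, all measured, FOXO1 and TXNIP were higher, and the median was 0.04. With the mean of the 3 control arrays 5 were higher with a median of 0.39, and against the sh-scrambled arrays 14 with a median of 0.61. TXNIP, though listed as repressed, fell by 1.72 after EWS-FLI1 knockdown (adjusted p = 4.3e-06, limma). Of 37 genes that it is known to activate, the Wnt inhibitor DKK2 was higher by 0.73 and the neuropeptide CCK lower, at −0.76, and the median was 0.07. Of 49 matrix and mesenchymal genes the basement membrane gene NID1 was higher by 1.19, while its second probe set gave −0.15. COL11A1 and the secreted matricellular genes POSTN (−0.93) and SPP1 (−0.84) were lower in that list. Other named members past the limit were the adhesion molecules L1CAM and NCAM1, both higher by 1.17, the neuronal genes GAP43 at −0.97 and RTN1 at −0.89, SERPINA3 at 0.82, SOCS3 at −0.79, the receptor FLT1 at 0.78, the sterol reductase TM7SF2 at 0.78 and EGR3 at 0.75. Against the mean of the sh-scrambled arrays, L1CAM was at 0.75, FLT1 at 0.63, EGR3 at 0.19 and SERPINA3 at 0.04. Of 15 blood cell markers 3 were measured, at 5.45 to 5.80 with empty vector and 5.50 to 5.94 with CDK2-resistant FOXO1, and none passed the limit.

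The place of both arrays among the controls was counted next, as a description, since the choice of the genes uses both. Among the 7 arrays without doxycycline, the CDK2-resistant array was the highest for 74 of the 213 higher genes (34.7%), while the empty vector array was the lowest for 87 (40.8%). Both held for 25 genes. Over all genes the CDK2-resistant array was the highest for 13.7% and the empty vector array the lowest for 9.80%. Of the 190 lower genes the CDK2-resistant array was the lowest for 41 and the empty vector array the highest for 70 (8.49% and 15.7% of all genes). Against the mean of the sh-scrambled arrays, where 5.65% of all genes were higher past 0.7 and 1.83% lower, 38 of the higher genes were also higher (17.8%) and 17 were lower. Of the lower genes 8 were also lower (4.21%) and 33 were higher. Against the mean of all 3 control arrays, where 1.76% were higher and 0.617% lower, 45 of the higher genes were also higher and 11 of the lower genes also lower. Of the 80 named genes 18 had the opposite sign against this mean, among them SESN3 at −0.13, TXNIP at −0.27, NCAM1 at −0.30, TAC1 at 0.22, HMOX1 at 0.90 and CCK at 1.30. ICAM1, CCL2, CXCL8 and CCL20 were not among the 18.

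A set of 30 genes, chosen after their values were seen, was past the limit against each of these controls. For 24 genes the CDK2-resistant array was the highest of the 7 and more than 0.7 above the empty vector array and the sh-scrambled mean. Passing both of these fixes the same result for the mean of those 3 arrays. The chemokine, NF-kB and inflammation lists hold 9 of them (CXCL8, CCL20, CXCL3, CXCL1, EBI3, IL32, TRAF1, MMP9 and IER3), or 37.5%, where they hold 0.519% of all genes. That share is a description and was not tested. The lists were chosen with earlier results of these data known, and the 24 genes were picked by the values of the same arrays. CXCL8 read 9.57 with CDK2-resistant FOXO1 and 5.13 to 8.998 on the other 6, and CCL20 read 8.24 against 4.90 to 7.79. Others were TNFRSF9, a costimulatory receptor, at 7.63 against 5.54 to 7.02, the kinase gene MAP3K8 at 5.81 against 4.76 to 5.08 and MIR146A, a microRNA gene, at 4.40 against 3.61 to 4.20. On the lower side 6 genes met the same rule: SCAF4, TFAP2B, TMEM67, IFT22, OSCP1 and EWSAT1. MIR146A and TMEM67 lay under the median of each of the 7 arrays, which limits how firmly their values can be read. TMEM67 read 3.90 with CDK2-resistant FOXO1, under the lower quartile of that array, which was 4.10. TFAP2B, a transcription factor, read 5.21 with CDK2-resistant FOXO1 and 5.76 to 6.30 on the other 6. EWSAT1, a noncoding RNA of Ewing sarcoma, read 5.07 against 5.71 to 5.99. ICAM1, CCL2 and IL1B were not in the set, since an sh-FOXO1 array read higher than the CDK2-resistant array.

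**Figure D2:**
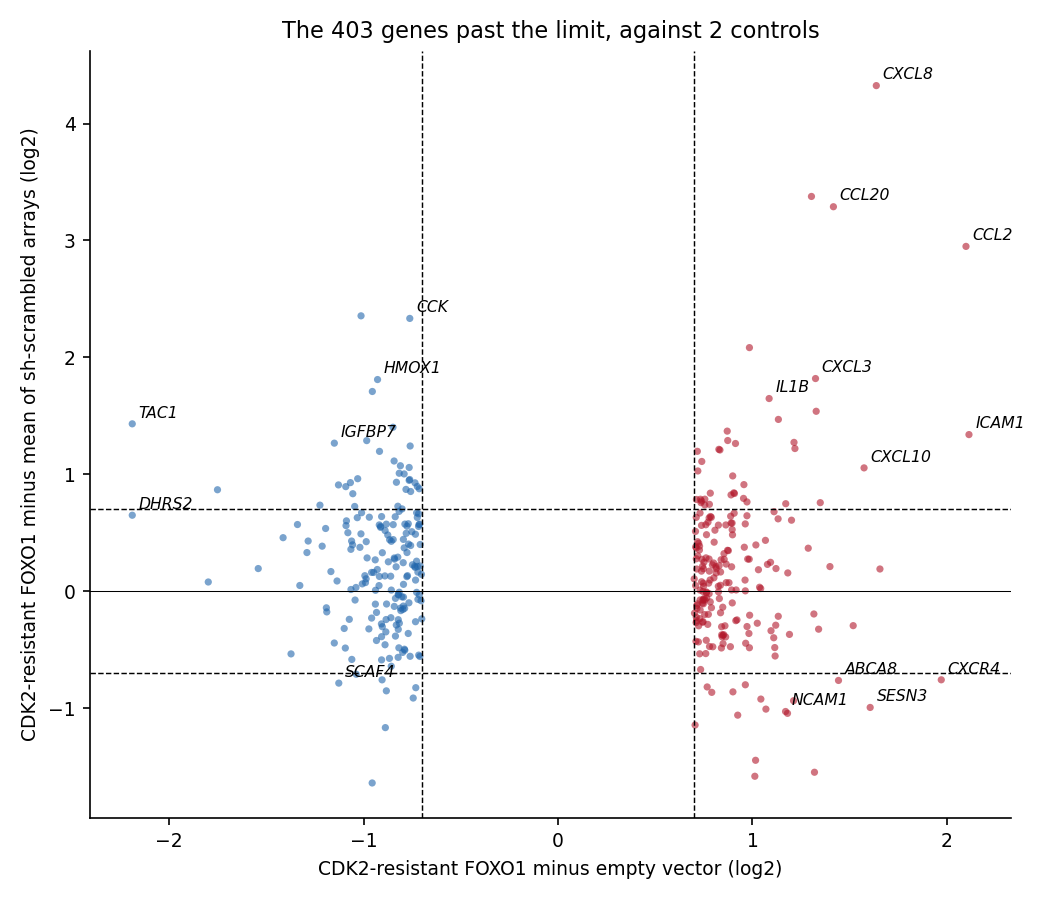
The 403 genes past the limit, with the log2 difference from the empty vector array on the x axis and from the mean of the 2 sh-scrambled arrays without doxycycline on the y axis (red, higher; blue, lower; dashed lines at 0.7 in both directions). Both axes use the CDK2-resistant array. CXCL8, CCL20 and CCL2 are above the limit on both axes, while CXCR4, SESN3, TAC1 and CCK have opposite signs on them.

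Other probe sets of the same gene were compared where the array holds them. Of the 96 higher genes with another probe set on the array, 27 had one past 0.7 in the same direction (28.1%) and 75 had all others on the same side of 0. Of 114 such lower genes the counts were 17 (14.9%) and 79. For COL11A1 the others gave −1.03 and −0.16, and for PGF −0.15. For SKIL the brightest gave −0.23 and the other −0.50, both within the limit. Also within it were the other probe sets of IGFBP7 at −0.34, UBE2QL1 at −0.51, L1CAM at 0.32, TNFSF15 at 0.41 and SOCS3 at −0.48 and −0.05. For UROD, an enzyme of haem synthesis that the rule names at −1.37, the 2 brighter probe sets gave 0.23 and 0.24, and for SIPA1L1, named at −1.80, the others gave 0.32 and −0.15. Those values of UROD and SIPA1L1 rest on 1 dim probe set each.

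The AKT-resistant mutant was measured against the same empty vector array, so the values are set side by side only. It gave 208 higher (1.69%) and 186 lower genes (1.51%). In the inflammation list its median was −0.24 with 1 member higher and 2 lower, and in the chemokine list 0.03 with 1 and 2. CCL2 was at −1.28 with AKT-resistant and 2.10 with CDK2-resistant FOXO1, IL1A at −0.85 and 1.30, and VCAM1 at −0.69 and 1.40. ICAM1 was at 0.06 with AKT-resistant FOXO1, and CXCL8 was past the limit with both, at 1.06 and 1.64. SESN3 was at 1.60 and 1.61. FOXO targets had medians of 0.27 and 0.31 with AKT-resistant FOXO1, with DEPP1 at 2.46 (0.38 with CDK2-resistant FOXO1). Histones had a median of 0.47 and metallothioneins of 0.68. H2BC4 was at 0.89 with AKT-resistant and −1.54 with CDK2-resistant FOXO1, HMOX1 at 1.19 and −0.93, IGFBP7 at 1.73 and −1.15, and TGFBI at 1.07 and −1.01. For these 4 genes the empty vector array lay between the mutants. A brighter probe set of IGFBP7 gave 0.93 with AKT-resistant and −0.34 with CDK2-resistant FOXO1. EPAS1, MME and OSMR, which the study followed, were at 0.90, 1.48 and 1.05 with AKT-resistant and −0.22, 0.06 and −0.07 with CDK2-resistant FOXO1. With AKT-resistant FOXO1 the second probe set of MME gave 0.85. The brightest of OSMR gave 0.47 and its remaining one 0.04, both within the limit.

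**Figure D3:**
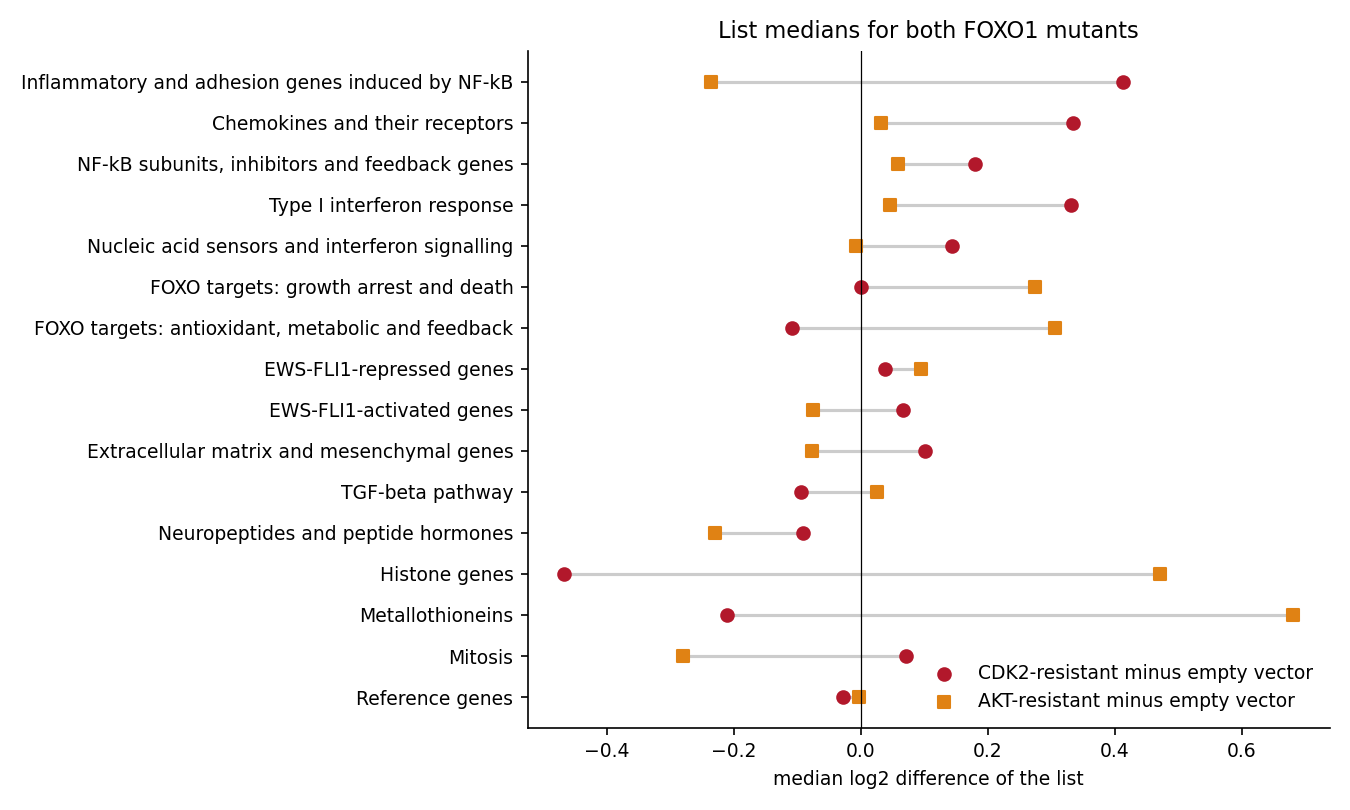
Median log2 difference of 16 gene lists for CDK2-resistant (red circles) and AKT-resistant FOXO1 (orange squares), each minus the same empty vector array. The inflammation list lies at 0.41 and −0.24 and the histone list at −0.47 and 0.47, and the reference genes lie near 0 for both.

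The shRNA arrays share no sample with this comparison and were tested with limma. FLI1 fell by 1.85 after knockdown of EWS-FLI1, and FOXO1 fell by 1.44 after silencing with doxycycline and by 0.95 without. EWS-FLI1 knockdown (sh-scrambled with against without doxycycline, adjusted p under 0.05 and past 1) raised 998 genes (8.10%) and lowered 923 (7.49%). It raised 61 of the 213 higher genes (28.6%) and 50 of the 190 lower genes (26.3%), and it lowered 34 and 9 (4.74%). The difference between these shares and those of all genes was not tested, and they depended on the control. With the mean of the 3 control arrays in place of empty vector, knockdown raised 72 of 217 higher genes (33.2%) and 9 of 76 lower genes (11.8%), and lowered 25 (11.5%) and 10 (13.2%). That mean holds the sh-scrambled arrays without doxycycline, which are also the baseline of the knockdown. Knockdown raised ICAM1 by 3.78 (standard error 0.08, adjusted p = 1.5e-08, limma), CCL2 by 6.19 (standard error 0.09, adjusted p = 5.2e-09, limma) and 20 of the 27 inflammation genes. CXCR4 fell by 2.90 (adjusted p = 3.1e-07, limma).

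FOXO1 silencing was set beside the mutant in the same way. In cells with doxycycline it raised 380 genes (3.08%) and lowered 292 (2.37%) at an adjusted p under 0.05 and past 0.7. Of the 213 higher genes 23 fell (10.8%) and 8 rose (3.76%), and of the 190 lower genes 32 rose (16.8%) and 9 fell (4.74%). With the mean of the 3 control arrays the order turned for the higher genes, of which 28 of 217 rose (12.9%) and 15 fell (6.91%), and 5 of 76 lower genes rose and 4 fell. In cells without doxycycline, a comparison added after the values were seen, it raised 425 genes (3.45%) and lowered 287 (2.33%). There 26 of the higher genes rose (12.2%) and 20 fell (9.39%), and 40 of the lower genes rose (21.1%) and 1 fell (0.526%). With the mean of the 3 control arrays 77 of the higher genes rose (35.5%) and 4 fell, and 1 of the lower genes rose (1.32%) and 6 fell (7.89%), so the direction of the lower genes reversed. The sh-scrambled arrays in that mean are the baseline of this silencing comparison too. The genes that rose included 9 of the 19 chemokine genes and 12 of the 27 inflammation genes. CCL2 was at 5.92 and 6.03 in sh-scrambled and at 8.87 and 9.08 in sh-FOXO1 cells, so that CCL2 rose by 3.00 (adjusted p = 2.8e-06 by limma). ICAM1 rose by 1.84 (adjusted p = 9.4e-06, limma), IL1B by 2.54 (adjusted p = 4.6e-06, limma) and CXCL8 by 3.16 (adjusted p = 6.4e-05, limma). These 4 genes were higher with CDK2-resistant FOXO1 than with empty vector, and higher in sh-FOXO1 than in sh-scrambled cells. Across the 12326 genes, which are not independent, the difference had a correlation of −0.15 with silencing without doxycycline, −0.16 with silencing with it and −0.00245 with EWS-FLI1 knockdown.

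**Figure D4:**
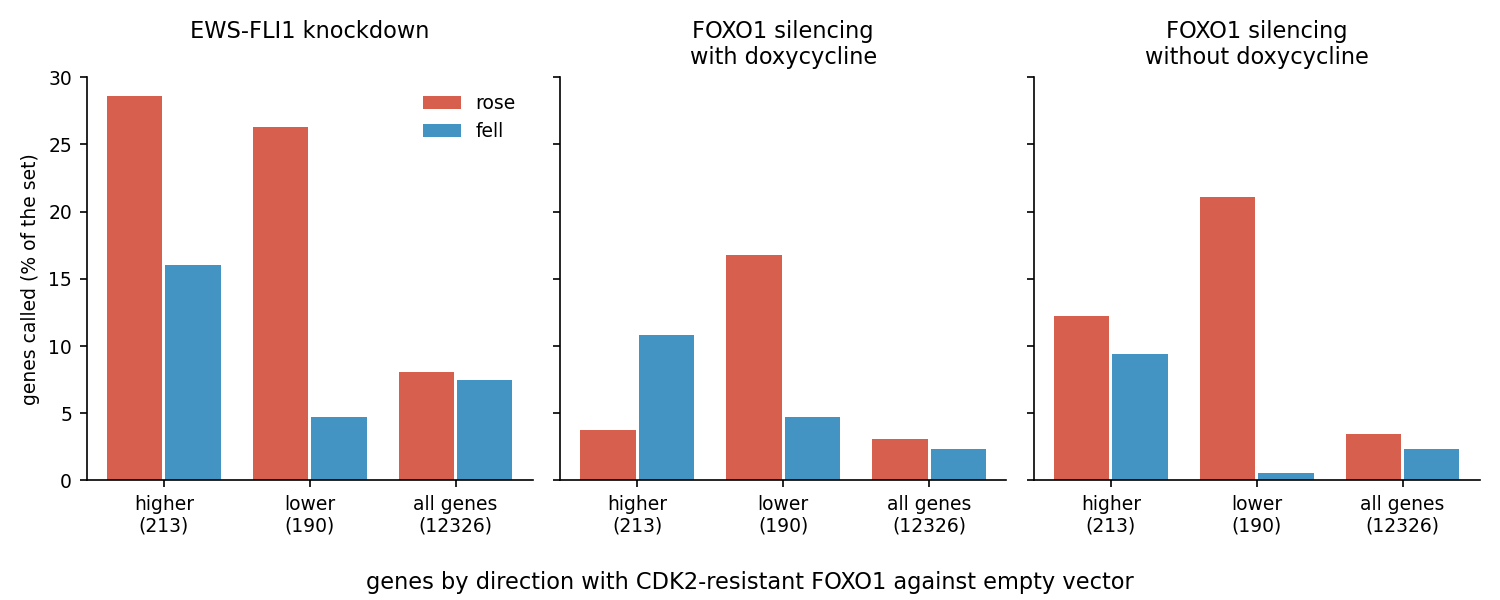
Percentage of genes that rose (red) or fell (blue) in EWS-FLI1 knockdown and in FOXO1 silencing with and without doxycycline, for the 213 genes higher and the 190 lower with CDK2-resistant FOXO1 and for all 12326 genes. Bars start at 0. The higher and lower genes rose at 28.6% and 26.3% after knockdown against 8.10% of all genes, and 21.1% of the lower genes rose after silencing without doxycycline. With the mean of the 3 control arrays in place of empty vector, the lower genes rose at 11.8% and 1.32% in these comparisons.

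A set of 14 genes was higher with CDK2-resistant FOXO1 past its replicates, rose after EWS-FLI1 knockdown and fell after FOXO1 silencing in cells with doxycycline. They were 6.57% of the higher genes, and 90 of all genes (0.730%) rose and fell in this way. The opposite set, which rose after both, held 3 of the higher genes (1.41%), NID1, LPL and NID2, and 92 of all genes (0.746%). These shares were not tested. The knockdown and the silencing share the sh-scrambled arrays with doxycycline, so their directions are not independent of each other. FOXO1 itself is 1 of the 14, with the plasmid's RNA not told apart in the mutant comparison. A probe set of FOXO1 that was not used gave −0.27 there. The 8 largest, which the rule names, were CXCL8, CXCL10, CCL20, CXCL3, FOXO1, CXCL1, the synaptic vesicle gene SYNGR3 and the calcium channel gene ORAI3. Against the mean of the sh-scrambled arrays without doxycycline, SYNGR3 was at 0.44 and ORAI3 at 0.02, within the limit. The others of these 8 were past it. The set of 14 was not counted with another control. CXCL3 rose by 4.24 after knockdown (adjusted p = 2.9e-07, limma) and fell by 1.84 after silencing (adjusted p = 0.00026, limma), and CXCL1 fell by 1.73 (adjusted p = 1.8e-05, limma). In cells without doxycycline CXCL1 rose by 0.84 after silencing (adjusted p = 0.00019, limma) and CXCL3 by 0.64 (adjusted p = 0.022, limma). The difference of the silencing effect between cells with and without doxycycline was not tested. CXCL8, at 10.8 and 11.1 in sh-scrambled and 10.0 and 10.3 in sh-FOXO1 cells with doxycycline, fell by 0.77 (standard error 0.21, adjusted p = 0.027, limma). Its brighter probe set read 11.93 and 11.97 in sh-scrambled and 11.56 and 11.59 in sh-FOXO1 cells with doxycycline, within the limit. The place of CXCL8 among the 14 thus rests on the probe set used. The remaining members were MAP3K8, CFAP95, RIPOR3, BDKRB2, SPARCL1 and KYNU.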

How the data were processed

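A673sh cells were profiled on 11 Affymetrix HG-U133 Plus 2 arrays. The authors deposited log2 values of 54675 probe sets an array, which they had summarised and normalized from CEL files. Log2 was inferred from the range, 2.60 to 14.6, since neither the base nor the summary method is given in the sources used here. A single gene symbol was found for 41097 probe sets, several for 1801 and none for 11777. Symbols were brought up to date by gene identifier (99.9%). A probe set was kept if any array had it at or above its 60th percentile, and each gene was represented by its probe set of largest interquartile range over the 11 arrays, leaving 12326 genes. The number of arrays limits the precision.

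Single arrays were compared by difference alone, counted past 0.7. For the shRNA groups, the 7 group means were fitted to all arrays with limma 3.58.1 (R 4.3.3, 4 residual degrees of freedom) with Benjamini-Hochberg adjustment, tested on simulated data. FOXO1 silencing without doxycycline was added after the data were seen. Tables were made in Python 3.11.15. Named are the 15 highest and 12 lowest genes among those at the median of either array, at most 5 members of each list a direction, FOXO1, FLI1, CDK2, EPAS1, MME and OSMR, and at most 8 genes shared with the shRNA comparisons. Other genes were named after their values were seen. The comparison, the 33 gene lists and the naming rule were chosen with earlier results of these data known. Promoters are from RefSeq, matched by symbol. Alternatives were another probe set, filter, limit, normalization, control and set of samples, and the replicate number as a block.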

Additional observations from a re-analysis of the deposited data

How the results depend on the processing

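The 213 higher genes became 696 against the mean of the 2 sh-scrambled arrays, a control added after the data were seen, 136 with the genes at the median of both arrays and 51 at a limit of 1. The 190 lower genes became 110 with the brightest probe set, 117 with the genes at the median of both arrays, 76 against the mean of the 3 control arrays and 47 at a limit of 1. Those also past their replicates (187) became 110 with the brightest probe set and 73 against the 3 control arrays. With the genes at the median of both arrays, 1 interferon gene (of 4) and 4 chemokine genes (of 7) were higher, since fewer genes were counted, and the 10 inflammation genes became 8 to 11 under the alternatives run.

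Against the mean of the 3 control arrays, 18 of the 80 named genes had the opposite sign: SESN3 −0.13, ABCA8 −0.028, TAC1 0.22, CPEB4 0.083, TXNIP −0.27, FOXC2 0.37, IFIT1 −0.016, ACKR3 0.13, SOCS3 0.12, CCK 1.30, NCAM1 −0.30, HMOX1 0.90, SLC30A1 0.0080, IGFBP7 0.46, SGK1 0.049, TGFBI 0.11, ID1 0.013 and EZH1 −0.055. Against the 2 sh-scrambled arrays, 38 had: CXCR4 −0.76, SESN3 −0.99, COLEC12 −0.29, ABCA8 −0.76, RGS1 −0.32, TAC1 1.43, DHRS2 0.65, SIPA1L1 0.079, UBE2QL1 0.87, H2BC4 0.19, COL11A1 0.46, EVA1A 0.57, LINC00326 0.33, GATA6 0.43, CPEB4 0.74, PGF 0.39, TXNIP −0.86, FOXC2 0.93, BST2 −0.25, IFIT1 −0.45, CMPK2 0.21, ACKR3 0.73, SOCS3 0.57, DKK2 −0.16, CCK 2.33, NID1 −0.37, NCAM1 −1.03, RTN1 0.13, HMOX1 1.81, SLC30A1 0.39, TM7SF2 −0.021, IGFBP7 1.27, SGK1 0.52, SKIL 0.032, TGFBI 0.67, ID1 0.40, H4C8 0.50 and EZH1 −0.47. With the brightest probe set UROD was 0.23 and EZH1 −0.11, and in the silencing comparisons SIPA1L1 was −0.19 with and −0.094 without doxycycline, UROD −0.36 and PGF −0.14 without. The cause was not tested.

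The replicate numbers pair no samples by the labels, and with the replicate block the knockdown gave 998 higher and 927 lower genes, silencing with doxycycline 382 higher genes, and silencing without it 426 higher and 292 lower, each within 1.5 times the count without the block. FOXO1 silencing without doxycycline lowered 188 genes with the brightest probe set. Leaving out 1 array, the counts ran from 965 to 1068 higher and 869 to 1055 lower after knockdown, 307 to 432 and 255 to 352 after silencing with doxycycline, and 374 to 528 and 226 to 449 without it, the last without sh-scrambled replicate 1 (287 with it). The counts past the replicate difference ran from 211 to 212 and from 187 to 190. Of the higher genes 12, and of the lower genes 6, reached the median of neither array, which limits how firmly their values can be read.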
